A study of Drosophila melanogaster with 11 samples.

Results

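CircRNAs spanning at least 700 and under 2000 nt of genome were followed in fly heads kept at different temperatures. These middle circRNAs were taken from the table by span, measured from the first to the last base of the circle on the genome, and needed a named host gene. CircRNAs of the host mbl and of chromosome 4 were left out. The rule kept 670 of the 1928 circRNAs, or 34.8%, and used no expression value. They came from 494 host genes, and 668 of them had a row for the linear RNA of the same host.

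The heads came from wild-type CantonS (CS) males of Drosophila melanogaster, raised and mated at 25 °C under 12 h of light and 12 h of dark. After sorting by sex under CO2 and 1 day of recovery, flies were frozen at once (pre-treatment, 3 libraries) or held for 10 days at 18 °C (3 libraries), 25 °C (2 libraries) or 29 °C (3 libraries). All groups share the strain and sex and carry no transgene, a library is a pool of flies, and exposed flies were also older than pre-treatment flies, so that age and exposure cannot be told apart in a comparison with pre-treatment. The comparison of 29 with 18 °C asks about temperature at equal days of exposure. Part of the design text speaks of brains, while titles and sample labels say heads.

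A circRNA forms when the spliceosome joins the end of an exon to the start of the same exon or of one upstream, which leaves a closed loop without a cap or a poly(A) tail. Such loops resist exonucleases and are known to accumulate in neurons and with age in fly heads, while linear transcripts of the same gene turn over. Pairing between repeats in long flanking introns and several RNA-binding proteins are known to favor backsplicing, and temperature can change how RNA pairs and how splice sites are chosen.

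CircRNA values are reads across the head-to-tail junction and linear values are reads over the whole gene, both normalized together by the authors, so a circRNA is compared here with itself between groups and never with another gene by raw level. The libraries held 32.1 M to 123 M reads in the table. The middle circRNAs took 4334 to 7729 junction reads per pre-treatment library, 12112 to 23934 at 18 °C, 14437 to 15649 at 25 °C and 15269 to 19723 at 29 °C. One read was worth 0.474 to 1.99 normalized reads depending on the library, and 3 reads, taken as the floor of detection, 1.42 to 5.98. Pre-treatment libraries were the shallowest in circRNA reads, with 465 to 568 middle circRNAs detected, against 627 to 666 at 18 °C, 611 to 643 at 25 °C and 625 to 646 at 29 °C. Pre-treatment replicate 2 stood apart, with a summed circRNA signal below that of the other 10 libraries. Photoreceptor and neuronal markers were present in every library: the summed normalized reads of 5 neuronal markers ranged from 241504 to 259240 at 29 °C and from 208316 to 244000 at 18 °C. Of the other marker lists compared at 29 against 18 °C, 3 of 6 photoreceptor genes were called higher (1863370 to 1993120 summed at 29 °C, 1333690 to 1368210 at 18 °C) and 3 of 5 glial genes lower (48313 to 49103 at 29 °C, 73974 to 79913 at 18 °C), against 5.32% higher and 5.25% lower over all linear genes tested. Muscle had 1 of 5 genes higher and 1 lower (181302 to 189642 summed at 29 °C, 118914 to 140135 at 18 °C). Head fat body had 1 of 4 lower, and female fat body and ovary 1 of 4 higher. The photoreceptor sum was mostly ninaE (mean 1440920 at 29 °C, 1063970 at 18 °C) and the muscle sum in large part Mhc (98809 and 70136). Both genes were higher at 29 than at 18 °C (log2 fold change 0.44 for ninaE and 0.497 for Mhc, limma adjusted p = 0.0206 and 0.0246). They missed the fold limit of 0.5 and so were not called. The sums thus do not give the size of the called changes. Against pre-treatment, where muscle markers summed to 253034 to 326094, 3 of the 5 muscle genes were lower at 25 °C, 4 at 29 °C and 3 at 18 °C. Photoreceptor genes were higher in 4 of 6 at 29 °C and lower in 2 at 18 °C, and glial genes were lower in 2 of 5 at 25 °C and 3 at 29 °C. Single genes of head fat body were lower at 29 °C and higher at 18 °C, 1 of female fat body and ovary was higher and the 1 tested testis gene was lower at 29 °C. Of all linear genes, 2.74% were higher and 2.64% lower at 25 °C, 5.85% and 6.93% at 29 °C, and 4.67% and 4.43% at 18 °C. No listed marker was at 0 in every library. The part of these shifts in the circRNA results was not tested. In whole heads, fewer cells of a type and less RNA per cell cannot be told apart.

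Middle circRNAs were mostly built from few internal exons. The 2 ends coincided with annotated exon ends in 597 of 670 (89.1%), against 75.4% of 329 short circRNAs (50 to under 700 nt) and 88.7% of 617 long ones (2000 nt or more) chosen by the same rules. Of the 597, 139 covered 1 exon, 219 covered 2, 132 covered 3 and 107 covered 4 or more, up to 8. Single-exon circles made up 23.3% of these middle circRNAs, 41.1% of the short and 2.74% of the long ones, and span and exon number are linked by construction. The median exonic length was 788 nt within a median span of 1175.5 nt, and junction reads do not show whether the enclosed introns are kept. The second exon was the first exon of the circle in 191 (32.0%) and the third in 122, and none began in exon 1. The host's start codon lay inside 188 circles, 390 held coding exons without a start or stop codon, 9 lay in the 5′ UTR alone and 10 held a stop codon. The flanking introns had medians of 3870 nt upstream and 2130 nt downstream. In total, 86 middle circRNAs (12.8%) shared a start or an end with another middle circRNA of their host, so members of 1 gene are not independent.

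Expression was uneven. The mean over the 11 libraries ranged from 1.01 to 936 normalized reads with a median of 9.36 and an interquartile range of 4.96 to 20.3. Only 15 middle circRNAs averaged 100 or more, 170 stayed under 5, and the 10 most abundant held 20.3% of the summed signal. The most abundant was a single-exon circle of btsz, which encodes the synaptotagmin-like protein bitesize (3R, 14859309 to 14860067 in dm6, second exon with the start codon). It had 935, 279 and 1075 normalized reads in the pre-treatment libraries, 878, 708 and 1214 at 18 °C, 1217 and 1157 at 25 °C, and 970, 1056 and 810 at 29 °C. Both 25 °C libraries lay above those of 29 °C and of pre-treatment, the other groups overlapped, and no comparison of this circle passed the test.

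The circle of uex, which encodes a magnesium transporter, spans 1208 nt of genome (2R, 3918151 to 3919358, 3 exons). It had 226, 273 and 225 normalized reads at 29 °C, against 173, 126 and 202 at 18 °C. It had 287 and 288 at 25 °C and 270, 173 and 321 before treatment, so its 18 °C values were the low ones among exposed libraries and overlapped those before treatment, but the change of 29 against 18 °C missed the threshold (log2 fold change 0.55 ± 0.24 SE, adjusted p = 0.243, limma with Benjamini-Hochberg adjustment). The more abundant circle of 5-HT2A (a serotonin receptor; 3R, 4626973 to 4628349) had 215, 277 and 228 at 29 °C, against 201, 177 and 192 at 18 °C, without overlap, and it was not called either (limma adjusted p = 0.693). CrebB, the fly CREB transcription factor, gave a 3-exon circle around its start codon that averaged 140 normalized reads. The cell cycle transcription factor E2f1 gave one at 120 and Fife, a protein of the presynaptic active zone, one at 115. The Fife circle had 107 to 176 normalized reads at 29 °C and 47.4 to 103.8 at 18 °C, without overlap, and 26.2 to 221 before treatment, the widest spread of the 4 groups. Among the 15 most abundant, 2 were single-exon circles, 3 held a start codon, and 14 had their lowest value in pre-treatment replicate 2. None of the 15 was called at 29 against 18 °C.

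**Figure D1:**
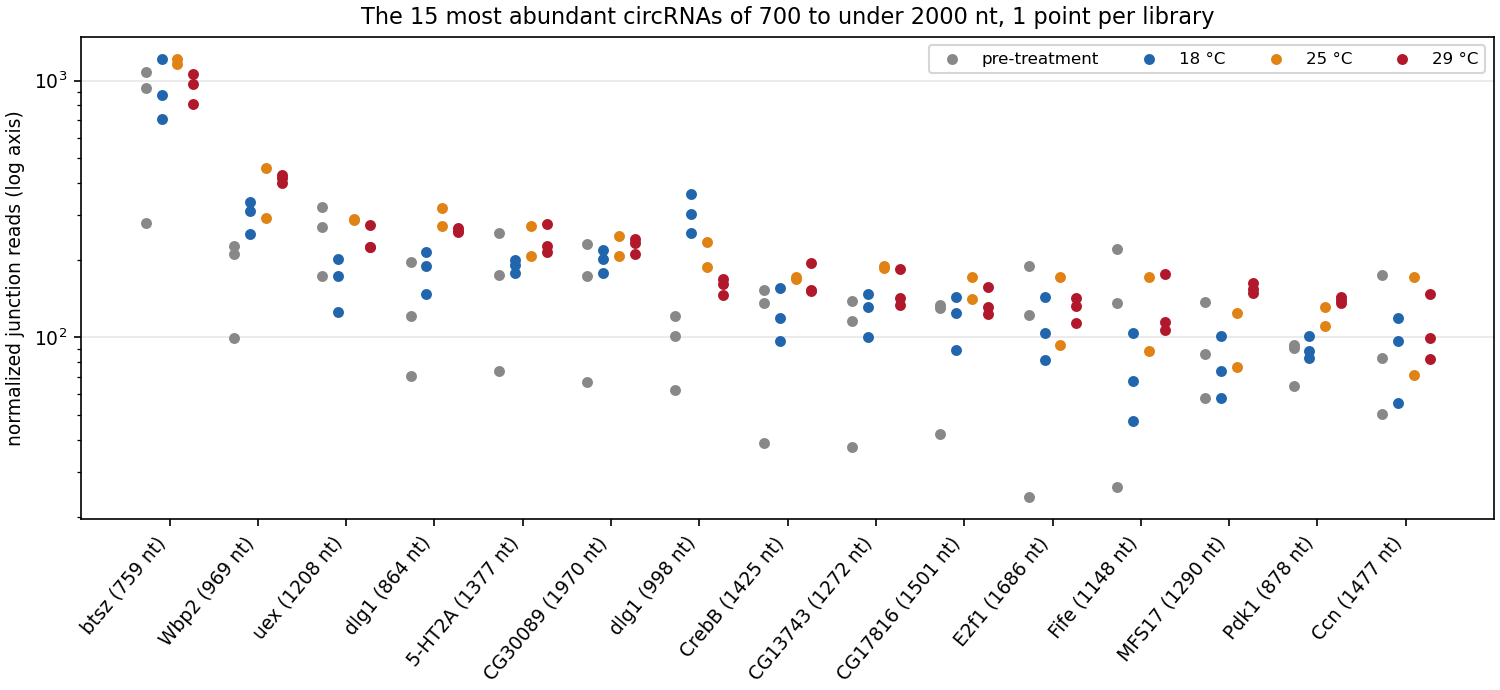
Normalized junction reads (log scale) of the 15 most abundant middle circRNAs in each of the 11 libraries, with one point per library and colors for pre-treatment, 18, 25 and 29 °C. The btsz circle lies above all others at a mean of 936, and pre-treatment replicate 2 is the lowest point of 14 of the 15.

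The summed signal of the middle circRNAs was then compared between groups. Pre-treatment heads averaged 10045 ± 4444 normalized reads and 18 °C heads 13195 ± 1630 (SD, n = 3 each). Heads at 25 °C averaged 14928 ± 2423 (SD, n = 2) and heads at 29 °C 15375 ± 1086 (SD, n = 3). The libraries at 29 °C held 14674, 16627 and 14826, against 13780, 11353 and 14452 at 18 °C, so that the groups did not overlap and the ratio of means was 1.17 (exact two-sided permutation p = 0.1, the smallest that 3 against 3 allow). Pre-treatment libraries held 12145, 4941 and 13050, and 25 °C libraries 13215 and 16641. The ratio to pre-treatment was 1.49 at 25 °C (exact permutation p = 0.2, the smallest possible for 2 against 3), 1.53 at 29 °C (exact p = 0.1) and 1.31 at 18 °C (exact p = 0.4). Against 25 °C it was 1.03 for 29 °C (exact p = 1) and 0.884 for 18 °C (exact p = 0.6). The lowest Benjamini-Hochberg value over the 6 tests was 0.3. Leaving out pre-treatment replicate 2 gave ratios of 1.19 (25 °C), 1.22 (29 °C) and 1.05 (18 °C) to pre-treatment. A fit with log2 depth as a covariate gave 1.01 for 29 to 18 °C, and 2.10 (25 °C), 2.32 (29 °C) and 2.30 (18 °C) to pre-treatment.

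The middle circRNAs held 37.6 ± 0.73% of all circRNA signal before treatment, 38.8 ± 0.51% after 18 °C, 39.5 ± 0.45% after 25 °C and 37.6 ± 0.10% after 29 °C (SD, n as above). The differences were small, but the 3 exposures did not overlap. Libraries held 37.52 to 37.73% at 29 °C, 38.18 to 39.17% at 18 °C and 39.23 to 39.87% at 25 °C, against 37.08 to 38.41% before treatment. Set against the other size classes, their balance leaned in opposite directions. Over short circRNAs, the log2 ratio of summed signals was 1.30 ± 0.12 at 29 °C and 0.99 ± 0.13 at 18 °C, a difference of 0.31 (exact permutation p = 0.1, adjusted 0.267 over 8 such tests). Over long circRNAs, it was 0.65 ± 0.02 at 29 °C and 0.78 ± 0.11 at 18 °C, a difference of -0.13 (exact permutation p = 0.1, adjusted 0.267). In both, the libraries of the 2 temperatures did not overlap, and neither can pass 0.05 at this group size. Against pre-treatment the difference over short circRNAs was 0.44 at 25 °C (exact permutation p = 0.4), 0.40 at 29 °C (p = 0.2) and 0.09 at 18 °C (p = 0.8). Over long circRNAs it was 0.03 (exact permutation p = 0.8), -0.17 (p = 0.1) and -0.04 (p = 0.7) for the same groups.

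**Figure D2:**
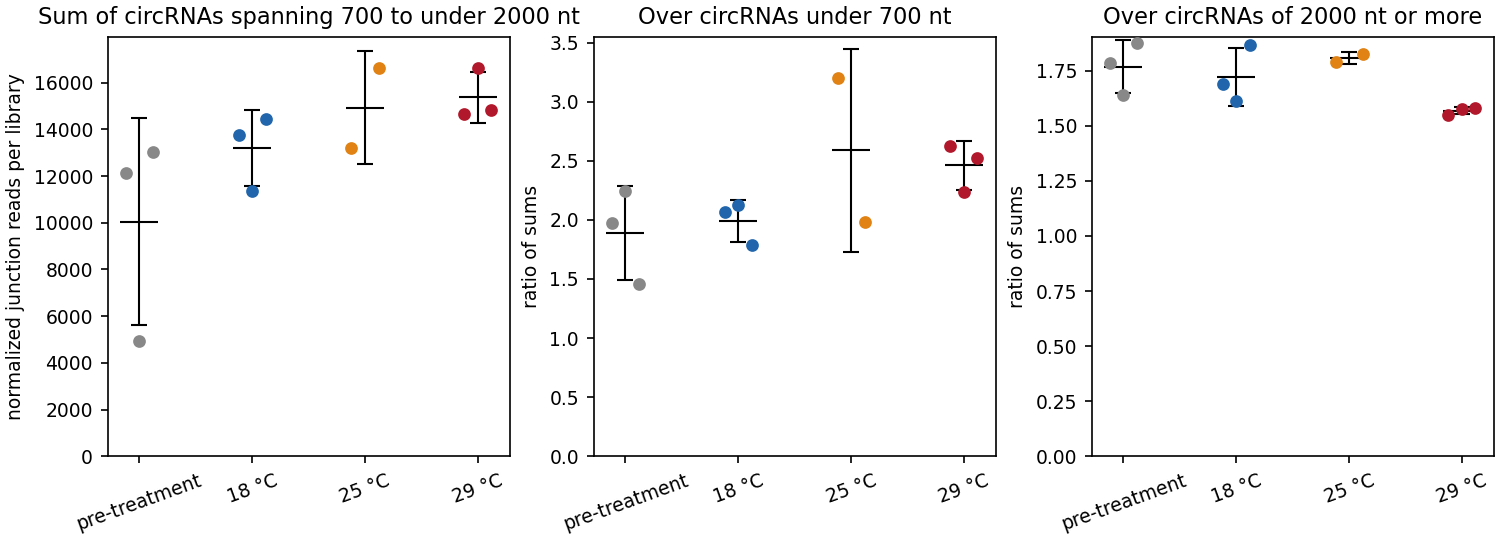
Summed normalized junction reads of the middle circRNAs per library (left), and the ratio of that sum to the sum of short circRNAs (middle) and of long circRNAs (right), for pre-treatment, 18, 25 and 29 °C. Points are libraries, dashes group means and error bars the SD. At 29 °C all 3 sums (14674 to 16627) lie above those at 18 °C (11353 to 14452), and pre-treatment replicate 2 lies at 4941.

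Single circRNAs were tested next. Of the 670, 643 had all libraries of at least 1 group above 3 normalized reads and were tested, and 27 were not. The filter was met in all 4 groups by 275, and by 342 through exposed groups and not through pre-treatment. A circRNA that passes through its high group alone had to differ, so counts over the tested circRNAs are read only against the same counts over all tested circRNAs. The same limit applies to its p-value against a group in which it did not meet the filter. Calls needed both a Benjamini-Hochberg adjusted p below 0.05 and a log2 fold change beyond 0.5 in size. Sample titles call the libraries biological replicates. They do not say whether these are separate cultures, so p-values reflect no more than the spread of these libraries.

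At 29 against 18 °C, 6 middle circRNAs were called higher (0.933% of 643, against 0.962% of all tested circRNAs) and 1 lower (0.156%, against 0.509%). Both shares are near or under the background. Groups did not overlap for 182 with higher values at 29 °C (28.3%, background 28.1%) and for 108 with lower values (16.8%, background 14.3%). The median log2 fold change was 0.18, the same to 2 decimals as over all tested circRNAs. The calls depend on the fit. Any library of 18 or 29 °C left out brought the count to 0, or to 1 without 18 °C replicate 3. Without either 25 °C library it was 3, and without pre-treatment replicate 1, 2 or 3 it was 22, 37 or 21. With each library rescaled to its circRNA total the split was 5 higher and 8 lower, with DESeq2 30 higher and 14 lower, and with edgeR 12 higher and 2 lower.

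The circle with the largest fold among the called ones with a mean of 10 or more came from Sec16, a scaffold of the endoplasmic reticulum exit sites where COPII vesicles form (X, 12607698 to 12608865, 3 exons from the eighth on, with the stop codon). It had 34.8, 50.1 and 33.1 normalized reads at 29 °C, against 6.17, 5.22 and 7.16 at 18 °C, 6.36-fold higher (log2 fold change 2.47 ± 0.40 SE, limma adjusted p = 0.0315). It had 17.4 and 28.7 at 25 °C and 7.86, 6.84 and 17.9 before treatment. The 29 °C libraries lay above every other library. Pre-treatment overlapped both 18 °C and 25 °C, with its replicate 3 (17.9) above the lower 25 °C library (17.4). Another 3 Sec16 circles begin at the same base and end further downstream, at 12608954, 12609159 and 12609348. The one ending at 12609348 had 12.7, 10.9 and 9.77 normalized reads at 29 °C, against 7.55, 9.01 and 7.16 at 18 °C (limma adjusted p = 0.799), and the one ending at 12608954 had 11, 9.80 and 12.0, against 6.17, 5.22 and 10.7 (limma adjusted p = 0.753). The one ending at 12609159 was at 6.79, 7.62 and 9.02, against 2.06, 0 and 0, and missed the threshold (limma adjusted p = 0.0723).

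Sarm, an NAD hydrolase needed for injured axons to degenerate, gave a single-exon circle (3L, 8106016 to 8106949, exon 11) with 51.8, 54.4 and 60.1 normalized reads at 29 °C, against 9.60, 11.9 and 19.1 at 18 °C. At 25 °C it had 42.1 and 33.0, and before treatment 4.71, 5.70 and 5.98. The 4 groups were in order without overlap, with pre-treatment lowest, and the rise of 29 over 18 °C was called (log2 fold change 2.01 ± 0.30 SE, limma adjusted p = 0.0279). The circle of the second exon of CadN, the neuronal cadherin of axon targeting (2L, 17737964 to 17739713, with the start codon), had 62.8, 47.9 and 59.4 at 29 °C, against 17.8, 19.9 and 13.1 at 18 °C (log2 fold change 1.69 ± 0.34 SE, limma adjusted p = 0.0416). It had 43.9 and 34.0 at 25 °C and 14.1, 12.5 and 5.98 before treatment, so that here 18 °C and pre-treatment overlapped.

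Lpin encodes lipin, the phosphatidate phosphatase of triglyceride synthesis, and its 4-exon circle (2R, 8138938 to 8140149) had 34.0, 32.7 and 52.6 normalized reads at 29 °C, against 11.7, 13.8 and 14.3 at 18 °C (log2 fold change 1.49 ± 0.27 SE, limma adjusted p = 0.0348). It had 30.2 and 34.0 at 25 °C and 11, 11.4 and 9.97 before treatment. The 25 °C values overlapped those at 29 °C. The one called fall was a 2-exon circle of Slob, which binds and modulates the Slowpoke potassium channel (2L, 7655545 to 7656463). It had 10.2, 10.9 and 21.0 at 29 °C, against 54.2, 36.1 and 59.7 at 18 °C, 3.56-fold lower (log2 fold change -1.80 ± 0.37 SE, limma adjusted p = 0.0416). It had 23.8 and 24.5 at 25 °C and 15.7, 9.12 and 17.9 before treatment, so the 18 °C libraries were the high ones. The other 2 called rises, which fall below a mean of 10 and are named after their values were seen, were scarce circles of dlg1 (X, 11394223 to 11396103; 7.64, 8.71 and 9.77 at 29 °C, against 2.06, 0 and 0 at 18 °C) and of l(1)G0196 (X, 22507108 to 22507965; 8.49, 12.0 and 7.52, against 0, 0.949 and 0). No fold is given for these, since 18 °C was at or under the floor of 3 reads.

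**Figure D3:**
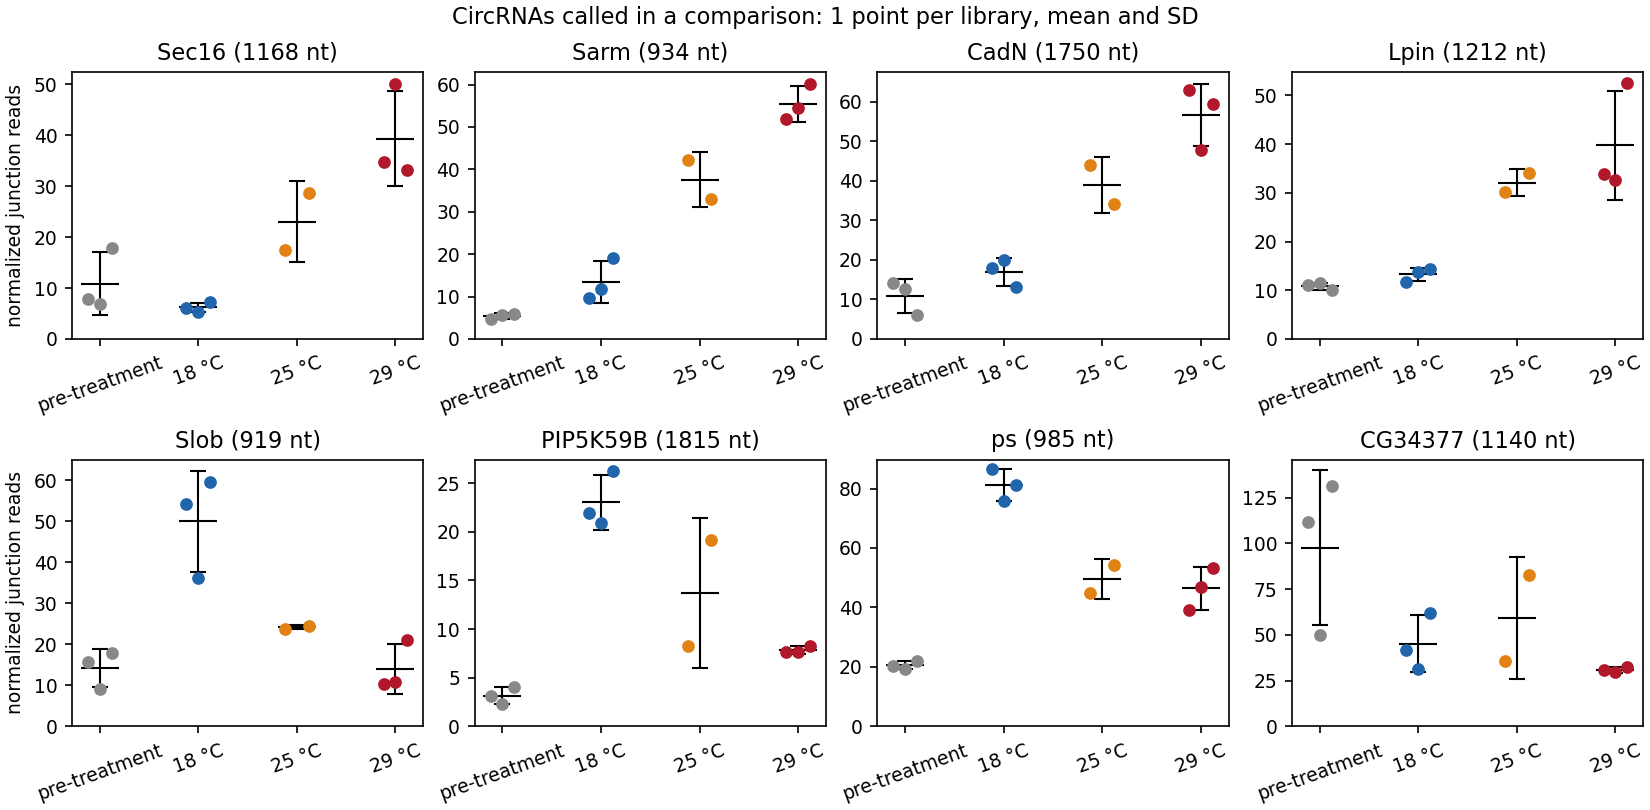
Normalized junction reads of middle circRNAs called in a comparison, one panel per circRNA, with 1 point per library, a dash at each group mean and the SD as error bar, for pre-treatment, 18, 25 and 29 °C. The Sarm circle steps up through the 4 groups (4.71 to 5.98 before treatment, 51.8 to 60.1 at 29 °C), and the Slob circle is highest at 18 °C (36.1 to 59.7).

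Each exposure was compared with pre-treatment, and nearly all called changes were rises. At 25 °C 25 middle circRNAs were called higher (3.89%, background 3.40%) and none lower (background 0). At 29 °C 113 were called higher (17.6%, background 18.4%) and 2 lower (0.311%, background 0.170%). At 18 °C 52 were called higher (8.09%, background 7.07%) and none lower (background 0). The shares were thus near the background at each temperature. The counts of 0 lower come from limma, with 0 circRNAs lower at an unadjusted p under 0.05 at 25 °C and 5 at 18 °C, and DESeq2 called 0 and 1 lower and edgeR 0 at both. The 3 comparisons share the pre-treatment libraries. The median log2 fold change was 0.79 at 25 °C (0.75 over all tested circRNAs), 0.92 at 29 °C (0.93) and 0.74 at 18 °C (0.76). Values did not overlap for 215 with higher values at 25 °C (33.4%, background 27.8%), 230 at 29 °C (35.8%, background 37.2%) and 194 at 18 °C (30.2%, background 27.1%). They did not overlap with lower values for 2 at 25 °C (background 0.736%), 6 at 29 °C (background 0.849%) and 4 at 18 °C (background 0.849%).

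These counts rest on few libraries. Without pre-treatment replicate 2 they were 14 at 25 °C, 67 higher and 2 lower at 29 °C, and 29 higher and 3 lower at 18 °C. Without pre-treatment replicate 1 they were 112, 199 and 144 in the same order, and without replicate 3 they were 40, 145 and 66. Leaving out any library of 29 °C gave a 29 °C count of 32. Without 25 °C replicate 1 or 2 the 25 °C count was 1 or 0. Without 18 °C replicate 1, 2 or 3 the 18 °C count was 0, 12 or 2. The 25 °C count also was 7, 3 and 14 without 18 °C replicate 1, 2 or 3, and 7, 2 and 2 without 29 °C replicate 1, 2 or 3. With each library rescaled to its circRNA total, which sets the summed rise to 0 by construction, 8 were higher at 25 °C, 27 higher and 7 lower at 29 °C, and 36 higher and 5 lower at 18 °C. Of the 113 rises at 29 °C, 29 circles were at 0 in all 3 pre-treatment libraries, as were 19 of the 52 at 18 °C, and 61 of the 113 had a mean of 10 or more.

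The circle of Sarm described above rose at 25 °C (log2 fold change 2.57 ± 0.34 SE, limma adjusted p = 0.0105) and at 29 °C (log2 fold change 3.13 ± 0.30 SE, limma adjusted p = 0.000746). No fold of means is given, since 2 of the 3 pre-treatment libraries were at the floor of 3 reads. The largest fitted rise at 29 °C belonged to CG32809, with 39.1, 33.8 and 35.3 normalized reads at 29 °C, against 6.29, 0 and 0 before treatment (X, 1675667 to 1677317; log2 fold change 4.25 ± 0.70 SE, limma adjusted p = 0.00565). With 2 of 3 libraries at 0 before treatment, this value depends on single libraries, and it was 5.21 without pre-treatment replicate 1 and 3.78 without replicate 2 or 3. The circle had 8.92, 12.3 and 4.77 at 18 °C, below all 29 °C values. A second CG32809 circle ends at the same base and starts further upstream at 1675319, and had 39.9, 42.5 and 36.1 at 29 °C, against 3.14, 5.70 and 5.98 before treatment. CG41099 gave a single-exon circle (3R, 3849499 to 3850235) at 23.8, 51.2 and 36.1 at 29 °C, against 0, 5.70 and 3.99 before treatment (limma adjusted p = 0.00768). DCX-EMAP, a doublecortin-family protein of sensory cilia, had a circle at 45.0, 38.1 and 36.1 at 29 °C, against 9.43, 0 and 9.97 (3L, 14903876 to 14904980; limma adjusted p = 0.0234), and here the linear host was called higher as well. The CG32809 circle from 1675667 and those of CG41099 and DCX-EMAP did not meet the filter before treatment, which limits their p-values.

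Other circles were called higher at 18 °C than before treatment. PIP5K59B, a kinase that makes the membrane lipid PIP2, had a circle at 22.0, 20.9 and 26.3 normalized reads at 18 °C, against 3.14, 2.28 and 3.99 before treatment (2R, 22878156 to 22879970; log2 fold change 2.55 ± 0.38 SE, limma adjusted p = 0.0110). Its pre-treatment values were all under the floor of 3 reads, so no fold of means is given. It also did not meet the filter before treatment, which limits its p-value. The same circle had 7.64, 7.62 and 8.27 at 29 °C, all below its 18 °C values (29 against 18 °C, limma adjusted p = 0.0723). The start-codon exon of ps, the Nova-family splicing regulator pasilla (3R, 9440681 to 9441665), gave 86.4, 75.9 and 81.1 at 18 °C, against 20.4, 19.4 and 21.9 before treatment (3.94-fold, log2 fold change 1.93 ± 0.20 SE, limma adjusted p = 0.00373). It was also called at 25 °C, with 44.9 and 54.2, and at 29 °C, with 39.1, 46.8 and 53.4. CoRest, a chromatin corepressor, had a circle (X, 19526841 to 19527834) at 54.9, 41.7 and 46.5 at 18 °C and 58.6 and 44.7 at 25 °C, against 17.3, 6.84 and 14 before treatment (limma adjusted p = 0.0221 for 18 °C and 0.041 for 25 °C). The most abundant circle of par-1 (2R, 19482952 to 19484207) had 54.2, 45.5 and 48.9 at 18 °C, against 11, 4.56 and 17.9 (limma adjusted p = 0.0151).

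The 2 falls were at 29 °C. The circle of CG34377 (3R, 22314660 to 22315799, 3 exons) had 30.6, 29.4 and 32.3 normalized reads at 29 °C, against 112, 50.2 and 132 before treatment, 3.18-fold lower (log2 fold change -1.53 ± 0.42 SE, limma adjusted p = 0.0314). Its linear host was called lower too (log2 fold change -1.21). The other was a scarce circle of Pfk, the glycolytic enzyme phosphofructokinase (2R, 10114917 to 10116825), with 0 in all 3 libraries at 29 °C, against 3.14, 2.28 and 12.0 before treatment.

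No middle circRNA was called by limma at 29 against 25 °C or at 18 against 25 °C (background 0 in each direction). At an unadjusted p under 0.05 there were 17 for 29 °C (13 higher and 4 lower) and 44 for 18 °C (22 higher and 22 lower). DESeq2 called 0 and 1, and edgeR called 0 in both. Groups did not overlap, in either direction, for 165 at 29 against 25 °C (25.7%, background 28.6%) and for 206 at 18 against 25 °C (32.0%, background 29.9%).

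Across the 3 exposures, 29 middle circRNAs (4.51%, background 4.87%) were lowest at 18 °C, intermediate at 25 °C and highest at 29 °C without overlap between neighbors, and 7 (1.09%, background 1.47%) ran the other way. Pdk1, the kinase that activates Akt, gave a 2-exon circle (3L, 135458 to 136335) of the first kind, with 83.0, 88.7 and 101 normalized reads at 18 °C, 131 and 111 at 25 °C, and 136, 144 and 140 at 29 °C. Pde8, a cyclic nucleotide phosphodiesterase, gave another around its start codon (2R, 23665294 to 23666035), with 64.5, 60.7 and 62.0 at 18 °C, 109 and 87.2 at 25 °C, and 120, 122 and 124 at 29 °C. Neither passed the test of 29 against 18 °C (limma adjusted p = 0.101 and 0.156), and both were called higher at 29 °C than before treatment. Every exposed library lay above every pre-treatment library for 85 middle circRNAs (13.2%, background 10.9%) and below for 1 (0.156%, background 0.170%).

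Host genes were grouped into 12 lists by what they encode, which cover 417 of the 670 circRNAs. At 29 °C against pre-treatment, hosts for RNA binding and translation control had 10 of 33 tested circles called higher, among them cpo, an RNA-binding protein of the nervous system, with a start-codon circle (3R, 17966473 to 17967828) at 126, 117 and 108 normalized reads at 29 °C, against 40.9, 30.8 and 57.8 before treatment (2.71-fold, log2 fold change 1.46 ± 0.23 SE, limma adjusted p = 0.00502). Over all tested circRNAs 18.4% were called higher in this comparison. Cytoskeleton and axon integrity had 11 of 44, polarity and junction scaffolds 7 of 28, presynaptic release 6 of 29, kinases, phosphatases and second messengers 8 of 44, transcription and chromatin 11 of 67, ion channels 6 of 45, and adhesion and axon guidance 6 of 49. Metabolism and carriers had 5 of 27 higher and 1 lower, small GTPase regulators 1 of 12, secreted factors 1 of 10, and transmitter and hormone receptors 0 of 12. No difference between lists was tested. At 29 against 18 °C adhesion, cytoskeleton, polarity and metabolism had 1 rise each and ion channels had the Slob fall (0.962% higher and 0.509% lower over all tested circRNAs).

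The most abundant circles of several lists were not called at 29 against 18 °C. The Elk channel (2R, 17901708 to 17903679) ranged from 85.8 to 124 normalized reads at 29 °C and from 64.0 to 96.7 at 18 °C, with 39.9 to 120 before treatment. That of Eps-15, an endocytic adaptor of the synapse (2R, 24771725 to 24772795), had 96.0 to 110 at 29 °C and 80.6 to 103 at 18 °C. The scaffold scrib (3R, 26554357 to 26555651) had 91.7, 134 and 102 at 29 °C, against 52.8, 47.4 and 63.2 at 18 °C, without overlap, but had 103.7, 19.4 and 103.7 before treatment, and the change was not called (limma adjusted p = 0.351). The metalloprotease kuz (2L, 13609791 to 13610578) had 67.1, 56.6 and 57.1 at 29 °C, against 30.9, 25.1 and 26.3 at 18 °C (limma adjusted p = 0.0683).

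The ratio of each circRNA to the linear RNA of its host was low, since junction reads are set against whole-gene reads, and its level cannot be compared between hosts. The median ratio was 0.0563% before treatment, 0.0852% at 18 °C, 0.0887% at 25 °C and 0.0953% at 29 °C, over 668 circRNAs. It exceeded 1% for 30, and the highest was that of CG34377, at 10.9% over all libraries, 9.78% at 29 °C and 12.6% before treatment. In the ratio test, 641 middle circRNAs were included. At 29 against 18 °C, 12 ratios were called higher (1.87%, background 1.75%) and 5 lower (background 0.905%). Against pre-treatment 20 were higher at 25 °C (3.12%, background 2.72%), 110 at 29 °C (17.2%, background 18.7%) and 53 at 18 °C (8.27%, background 7.72%), with none lower. At an unadjusted p under 0.05, 0 ratios were lower at 25 °C, 2 at 29 °C and 1 at 18 °C. No middle circRNA changed its ratio against 25 °C in this limma test (for 29 °C 12 higher and 5 lower at an unadjusted p under 0.05, background called higher 0.0604%; for 18 °C 22 higher and 21 lower, background called higher 0.121%).

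Linear hosts changed little in the median. Over 477 hosts of tested circRNAs the median log2 fold change of the linear row was -0.05 at 29 against 18 °C, and -0.07 at 29 °C against pre-treatment. At 29 °C against pre-treatment 113 middle circRNAs were called higher. Their host was not called for 108, called higher for 4 and lower for 1, and 89 were also called in the ratio. Over all tested circRNAs 326 were called higher, with a host not called for 282, higher for 20 and lower for 4. The rest of the 326 had no host result, so shares of the 326 and of the 113 are not like for like. Of the 326, 242 were also called in the ratio. The ratio contains the circRNA value, so it is not a separate test. The Sarm circle was 0.118% of its linear host at 29 °C, against 0.0299% at 18 °C (log2 ratio change 1.96, limma adjusted p = 0.0193), while the linear host averaged 47114 ± 1256 normalized reads at 29 °C and 45626 ± 2002 at 18 °C (SD, n = 3 each). For Sec16 the ratio was 0.199% at 29 °C and 0.0328% at 18 °C (2.42, limma adjusted p = 0.0147), and for Slob it was 0.0313% and 0.156% (-2.26, limma adjusted p = 0.0206). The ratio test added a circle of dpy, a giant protein of the apical extracellular matrix (2L, 4487449 to 4489113), with 28.0, 17.4 and 17.3 normalized reads at 29 °C, against 4.12, 5.22 and 2.39 at 18 °C (log2 ratio change 2.36, limma adjusted p = 0.0286). It also added one of the kinase gene Dyrk2 (2L, 14196927 to 14197867) that was lower, with 5.94, 8.71 and 12.8 at 29 °C, against 30.9, 29.9 and 29.8 at 18 °C (log2 ratio change -1.82, limma adjusted p = 0.0444).

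**Figure D4:**
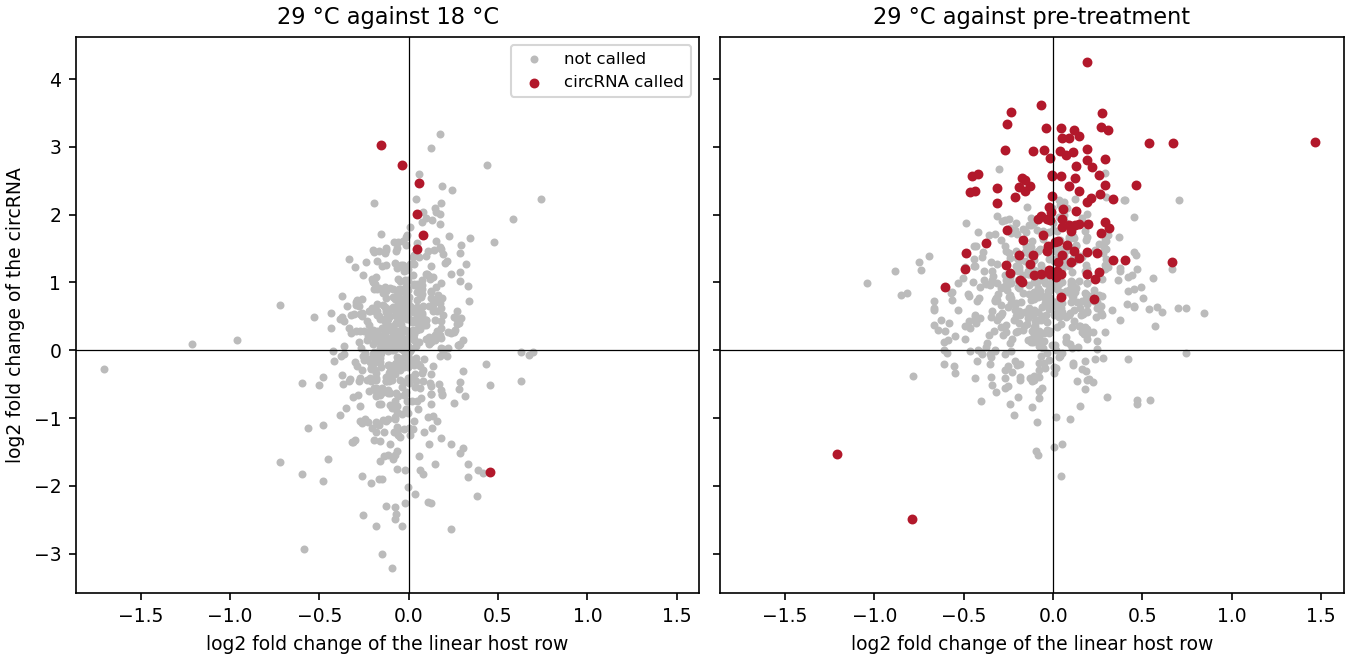
Log2 fold change of each tested middle circRNA (vertical) against that of the linear row of its host (horizontal), for 29 against 18 °C (left) and for 29 °C against pre-treatment (right), with called circRNAs in red and the others in gray. The circRNA values are spread far more than the host values, whose median was -0.05 in the first comparison and -0.07 in the second. The tested circRNAs had a median mean of 9.91 normalized reads, and the part of counting error in their spread was not tested.

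Most hosts gave 1 middle circRNA (375 of 494), 90 gave 2 and 29 gave 3 or more. With 8 each, mim and par-1 gave the most, followed by CG32264 with 7 and scrib with 6. Circles of mim, a membrane-bending actin regulator, averaged 2.75 to 18.1 normalized reads, and those of par-1, a kinase of cell polarity and microtubules, 1.66 to 30.3. At 29 against 18 °C the log2 fold change was below 0 for 7 of 8 par-1 circles and 7 of 7 CG32264 circles. It was below 0 for 4 of 8 of mim and 1 of 6 of scrib, and none of these circles was called. Over all tested circRNAs it was above 0 for 59.8%. Some circles of mim, of par-1 and of CG32264 share a start or an end, so they are not separate observations. Against pre-treatment, par-1 had 4 circles called higher at 18 °C, 1 at 25 °C and 1 at 29 °C, and mim had 2, 1 and 3 in the same order. CG32264 had none in any of these comparisons and scrib had 1, at 29 °C. Over all tested circRNAs 7.07% were called higher at 18 °C, 3.40% at 25 °C and 18.4% at 29 °C, and differences between hosts were not tested.

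Circles of 1 host could differ in opposite directions between temperatures. The scaffold gene dlg1, whose product organizes synapses and septate junctions, gave a pair of abundant circles that do not overlap on the genome. Circles of a host are named here by their span on the genome. The 864-nt circle (X, 11395240 to 11396103) had 259, 266 and 257 normalized reads at 29 °C, against 189, 147 and 216 at 18 °C. The 998-nt circle (X, 11397825 to 11398822) had 169, 146 and 161 at 29 °C, against 302, 256 and 362 at 18 °C. Neither circle was called at 29 against 18 °C. The second over the first was 0.609 ± 0.054 at 29 °C and 1.67 ± 0.07 at 18 °C (SD, n = 3 each), with no overlap, and 0.780 ± 0.144 before treatment. Junction reads were divided within a library here, so its scaling cancels.

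The 985-nt ps circle over the 1454-nt one (3R, 9445044 to 9446497) ran the same way, at 0.497 at 29 °C and 1.67 at 18 °C on average. For Pura the 1399-nt circle over the 1175-nt one averaged 0.577 at 29 °C and 1.72 at 18 °C. In Sarm the ratio of the 934-nt circle to the 1191-nt one (3L, 8098346 to 8099536) ran the other way, at 0.523 at 29 °C and 0.186 at 18 °C. Both Sarm circles were higher at 29 °C than at 18 °C, the 934-nt one by more. The Sarm pair thus differed in the size of the rise and not in direction. These pairs were chosen after their values were seen and carry no test. Among the 23 same-host pairs of middle circRNAs that both averaged 20 or more, the ratio at 29 °C did not overlap that at 18 °C in 16 (69.6%). The share was 36.2% of 210 same-host pairs of all circRNAs with a named host. The 23 pairs came from 16 hosts and the 210 from 62, and pairs of 1 host share members. The wider set takes any span and any named host, so the 2 shares are not like for like.

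**Figure D5:**
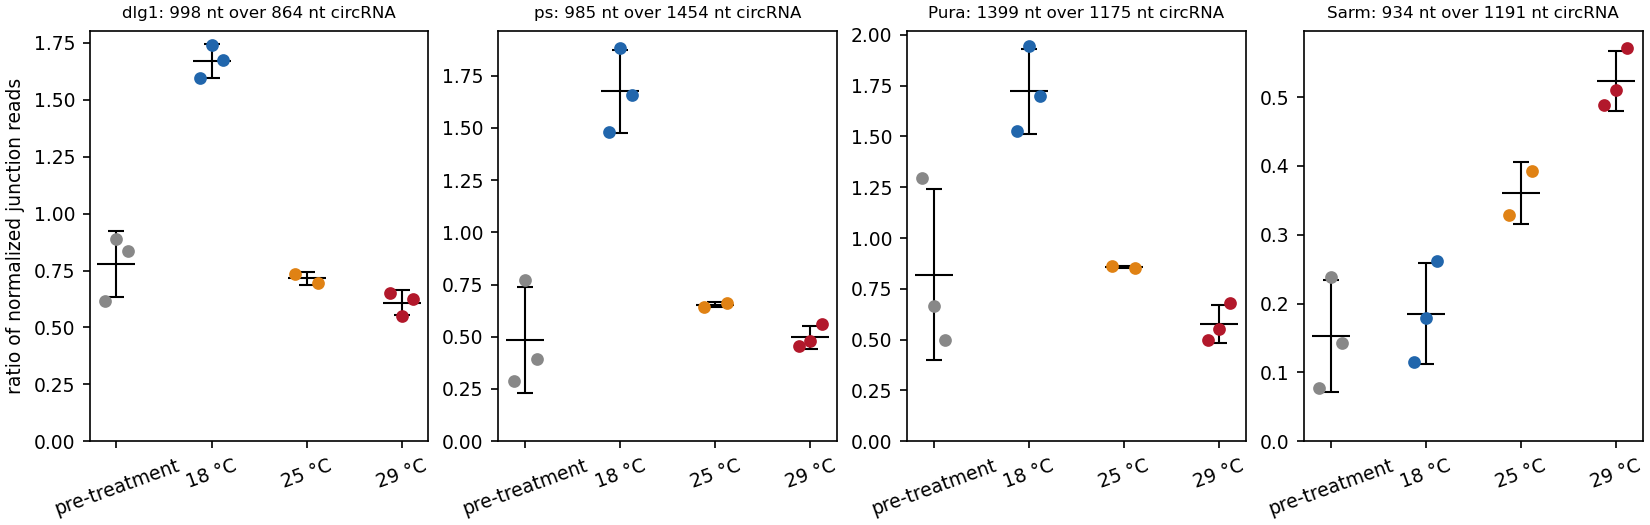
Ratio of junction reads between 2 middle circRNAs of the same host in each library, for pairs of dlg1, ps, Pura and Sarm, by group, with the mean and SD. The ratio of the 998-nt to the 864-nt dlg1 circle averages 0.609 at 29 °C and 1.67 at 18 °C. The Sarm ratio runs the other way, 0.523 at 29 °C and 0.186 at 18 °C, with both Sarm circles higher at 29 °C.

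Linear rows of 20 genes for making, exporting and splicing circRNAs were read from the same table. At 29 against 18 °C 1 was called higher (ldbr, the lariat debranching enzyme, log2 fold change 0.65, limma adjusted p = 0.0313) and 0 lower, against 5.32% and 5.25% of linear genes tested. At 18 °C against pre-treatment 1 was called higher (Hrb87F, an hnRNP, 0.72, limma adjusted p = 0.0328; 4.67% of linear genes were called higher there). Of the other listed genes none was called in either comparison, and no test related them to the circles.

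The span limits run through a continuous range. Just inside the lower limit were circles of CG34398 and the potassium channel gene eag, both of 700 nt with means of 10.2 and 14.4 normalized reads, and just outside were those of SK (698 nt, 7.098) and RpS27A (2.94). At the upper limit Liprin-gamma (1996 nt, 29.5) and CG32809 (just under 2000 nt, 16.2) were inside, and CG30377 (2002 nt, 4.72) and Proc-R (2017 nt, 12.2) outside.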

How the data were processed

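Ribodepleted, directional total RNA libraries from fly heads were used. The deposited signal values are normalized reads that the authors made by aligning to dm6 with STAR, assigning linear reads with featureCounts, counting head-to-tail junctions with find_circ2 and applying DESeq2 size factors to circRNAs and genes together. Versions and the strand setting are not stated. Whole reads could be recovered for 100% of values within 0.01, and served DESeq2 1.42.0 and edgeR 4.0.16 as alternatives. The host gene symbol was matched to its linear row, through annotation synonyms for 7 hosts, and exons came from Ensembl release 115. No sequence was used.

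Log2(value + 1) was fitted in R 4.3.3 by limma 3.58.1 with a trended empirical Bayes step, all 11 libraries and no covariate, over 1767 circRNAs with all libraries of a group above 3, with Benjamini-Hochberg adjustment over them. Fold changes on this scale understate low circRNAs. Folds given without log2 divide group means. The ratio test used the difference of log2(value + 1) between circRNA and host over 1657 circRNAs. Linear genes were tested at a mean of 10 or more (12676 genes). Sums were compared by exact two-sided permutation. Counting floors of 3 reads cover counting error alone. Simulated data with known changes were used to check the limma fit.

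Named circRNAs were the 15 most abundant and the largest called changes at means from 10 up whose groups stay apart. Those were up to 12 rises and 8 falls for 29 against 18 °C, 6 and 4 otherwise. Also named were the 3 most abundant of each host list, the highest ratios and the largest called ratio changes. The 4 hosts with most circles, circles at the span limits, and same-host pairs whose ratio differed between temperatures were named too. Members, lists and rules were chosen with earlier results of these data known. Alternatives were pseudocount 0.5, no filter or a mean of 20 or more, rescaling to the circRNA total, 2-group fits, a replicate term, depth as a covariate for sums, and each library left out. A fit of circRNAs without linear genes was added after seeing the data. The main fits did not treat replicate numbers as pairs.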

Additional observations from a re-analysis of the deposited data

How the results depend on the processing

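The number of middle circRNAs called at 29 against 18 °C was 7, and it was 3 with a pseudocount of 0.5, 22 with circRNAs fitted without the linear genes (chosen after seeing the data), 13 after rescaling to the circRNA total, 94 in a fit of the 2 groups alone, 14 with edgeR and 44 with DESeq2. At 25 °C against pre-treatment it was 25, and 13 at a mean of 20 or more, 8 after rescaling, 0 in the 2-group fit and 1 with edgeR. At 29 °C against pre-treatment it was 115, and 46 at a mean of 20 or more, 34 after rescaling, 52 in the 2-group fit and 64 with edgeR. At 18 °C against pre-treatment it was 52, and 15 at a mean of 20 or more, 0 in the 2-group fit, 5 with edgeR and 31 with DESeq2. At 18 against 25 °C it was 0, and 1 with circRNAs alone and 1 with DESeq2. Called ratios were 17 at 29 against 18 °C, and 6 with a pseudocount of 0.5 and 5 at a mean of 20 or more. Against pre-treatment called ratios were 20, 110 and 53 at 25, 29 and 18 °C, and 1, 22 and 0 at a mean of 20 or more, where fewer circRNAs were tested. The cause of the other differences was not tested.

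The groups share replicate numbers, and the main fits did not pair them. Correlations of same-numbered libraries' deviations from group means ran from -0.29 to 0.29, and not every library correlated best with its own number. Each pre-treatment library did so at 18 °C (0.051, 0.27 and 0.29), while the replicates 2 of pre-treatment and 25 °C had -0.29. Deviations within so few libraries are tied to each other, so this cannot show whether the numbers pair samples. A replicate block changed the calls to 1 (29 against 18 °C), 4 (25 °C against pre-treatment) and 29 (18 °C against pre-treatment), the called ratios to 8 (29 against 18 °C) and 0 (25 °C against pre-treatment), and turned the ratio of sums of 29 to 25 °C to 0.967. Depth as a covariate turned that of 18 to 25 °C to 1.09.

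With 1 library left out, the ratio of sums ran from 1.09 to 1.22 (29 against 18 °C), 1.19 to 1.75 (25 °C against pre-treatment), 1.22 to 1.80 (29 °C against pre-treatment), 1.05 to 1.54 (18 °C against pre-treatment), 0.924 to 1.16 (29 against 25 °C) and 0.793 to 0.998 (18 against 25 °C). The log2 difference over short circRNAs ran from 0.23 to 0.37, 0.090 to 0.78, 0.22 to 0.53 and -0.083 to 0.23 for the first 4 comparisons, and over long circRNAs from -0.18 to -0.073, -0.019 to 0.079, -0.22 to -0.13 and -0.097 to 0.010. Calls ran from 0 to 37, 0 to 112, 32 to 199 and 0 to 144, and called ratios from 0 to 48, 0 to 115, 36 to 201 and 1 to 138. Among 24 calls of named circRNAs, 24 held with DESeq2, 23 with circRNAs alone, 22 with a pseudocount of 0.5, 16 with edgeR, 14 with the block and 10 after rescaling. With 1 library left out 7 (without 18 °C replicate 1) to 23 held, and 9 or 10 without a 29 °C library. Junction depth in pre-treatment libraries, where 3 reads are 3.42 to 5.98 normalized reads, limits what can be said of circles near 5.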
